A study of Mus musculus with 12 samples.

Results

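The genes described here encode receptors, ligands and signals by which dead cells and erythrocytes are recognized and cleared, a process called efferocytosis when the target is a dying cell. They were chosen as the rows of the deposited count table with the symbols Axl, Mertk, Gas6, Pros1, Msr1, Marco, Stab1, Lrp1, Cd47 and Sirpa, and all 10 were found among the 21956 genes of the table. The table came from RNA-seq of hematoma-adjacent brain tissue of 12 mice, 3 in each of the groups Sham-Fabp4flox/flox, Sham-Fabp4CKO, ICH-Fabp4flox/flox and ICH-Fabp4CKO, where ICH is intracerebral hemorrhage. Hemorrhage was induced by collagenase injected into the right striatum, and the tissue was taken 48 h later within a radius of 1 to 2 mm in slices of 1 mm, whereas sham mice had the operation without collagenase. All 4 groups carried floxed alleles of Fabp4, the gene of fatty acid-binding protein 4. The Fabp4CKO mice carried in addition a tamoxifen-inducible Cre recombinase under Tmem119, a gene of microglia, and received tamoxifen for 7 days, with surgery 14 days after the last dose. Whether the Fabp4flox/flox mice also received tamoxifen, and the age and sex of the mice in these libraries, were not given in the sources used here. The comparisons address how the clearance genes responded to hemorrhage in each genotype and whether microglial Fabp4 deletion went with a different level or response.

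The clearance of a dying cell starts with phosphatidylserine exposed on its surface. The soluble proteins Gas6 and protein S (Pros1) bind this lipid and bridge it to the receptor tyrosine kinases Axl and Mertk, while stabilin-1 (Stab1) binds it directly. Class A scavenger receptors (Msr1, Marco) take up modified lipoproteins and debris, and Lrp1 takes up many ligands, among them complexes of heme with hemopexin. Cd47 on healthy cells and erythrocytes binds Sirpa on phagocytes and restrains uptake, so that its loss from aging erythrocytes permits their removal. In a hemorrhage in the brain, microglia and macrophages that enter from blood clear erythrocytes and dead cells.

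Shown are the promoters of the 3 genes with the largest rises after hemorrhage among those with an entry in the reference table. That of Cd47, which was not called changed in any comparison, is shown beside them. Each is the 250 bases before the transcription start in RefSeq (GRCm38.p6), written 5′ to 3′ on the gene's strand. They lie at chr14:31168642-31168891 (minus strand) for Stab1, chr1:120505025-120505274 (minus strand) for Marco, chr16:62854057-62854306 (plus strand) for Pros1 and chr16:49855404-49855653 (plus strand) for the first of the starts listed for Cd47. Capitals mark matches on either strand to GAGGAA, a core bound by the myeloid factor PU.1, to TGANTCA, the AP-1 site, or to TGANNNNGC, the core of the antioxidant response element, which can overlap an AP-1 site. The motifs were chosen with the sequences known.
Stab1: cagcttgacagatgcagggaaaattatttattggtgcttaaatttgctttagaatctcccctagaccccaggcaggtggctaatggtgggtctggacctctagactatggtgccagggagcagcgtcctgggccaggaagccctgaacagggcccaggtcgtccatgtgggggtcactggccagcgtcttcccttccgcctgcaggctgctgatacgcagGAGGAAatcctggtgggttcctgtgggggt
Marco: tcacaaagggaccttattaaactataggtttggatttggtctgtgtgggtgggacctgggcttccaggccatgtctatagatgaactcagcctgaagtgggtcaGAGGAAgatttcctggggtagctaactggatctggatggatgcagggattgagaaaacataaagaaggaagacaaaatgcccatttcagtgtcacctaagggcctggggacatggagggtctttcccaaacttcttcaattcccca
Pros1: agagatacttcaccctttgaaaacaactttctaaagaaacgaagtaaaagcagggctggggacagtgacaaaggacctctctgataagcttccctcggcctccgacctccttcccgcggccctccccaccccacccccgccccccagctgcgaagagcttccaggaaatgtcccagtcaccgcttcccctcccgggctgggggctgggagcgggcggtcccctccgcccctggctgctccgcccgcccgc
Cd47: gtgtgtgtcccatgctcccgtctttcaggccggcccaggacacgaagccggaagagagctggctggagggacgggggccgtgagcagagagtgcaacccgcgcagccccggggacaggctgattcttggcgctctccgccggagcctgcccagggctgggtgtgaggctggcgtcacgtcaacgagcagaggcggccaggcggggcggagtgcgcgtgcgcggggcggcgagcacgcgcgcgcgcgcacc
GAGGAA was found once in each promoter of Stab1, Marco and Axl, and in 23.3% of the 32851 promoters of the table. TGANNNNGC was found only in the promoter of Lrp1 among the 8 genes with an entry, and in 35.2% of all promoters, whereas TGANTCA was found in none of the 8 and in 6.75% of all. The table gave no entry for Msr1 and Sirpa. A match describes the letters only.

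Before the members, the libraries were compared. Total counts ranged from 15650822 to 22406226 per library, and Fabp4 had 46, 63 and 24 counts in the ICH-Fabp4flox/flox mice, 5, 3 and 10 in the ICH-Fabp4CKO mice, 2, 1 and 2 in the Sham-Fabp4flox/flox mice and 0 in each Sham-Fabp4CKO mouse. The microglial marker Tmem119 was detected in every library, at 440 to 3137 counts, and summed neuron markers were at 1840 to 6740 CPM, as the label of brain tissue implies. ICH-Fabp4CKO mouse 1 held 1 count on Y-linked genes against 1302 to 2251 in the other 11 libraries. ICH-Fabp4CKO mouse 2 stood apart from its group, with correlations of log2 CPM over genes of 0.93 and 0.90 with mice 1 and 3, against 0.97 between those and at least 0.94 within the other groups. The Sham-Fabp4flox/flox mice had summed choroid plexus markers of 832 to 3110 CPM against 11.1 to 25.5 CPM in all other mice. CPM are counts scaled to a library size of 1e+06 after TMM scaling over the 12 libraries. Counts of members called that rest on ICH-Fabp4CKO are therefore also given with each of its mice left out in turn.

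The receptors Axl and Mertk rose after hemorrhage in both genotypes. Axl was at 73.4, 55.4 and 49.1 CPM in the Sham-Fabp4flox/flox mice and at 199.5, 266.5 and 171.9 CPM in the ICH-Fabp4flox/flox mice. In Fabp4CKO mice it was at 53.1, 60.1 and 54.2 CPM after sham and at 215.6, 194.9 and 264.6 CPM after hemorrhage. All 6 ICH mice lay above all 6 sham mice, and the 2 ICH groups overlapped. The log2 fold change of Axl was 1.80 (SE 0.226, adjusted p = 0.00111) in Fabp4flox/flox and 2.01 (SE 0.16, adjusted p = 0.00478) in Fabp4CKO. SE is the standard error. These and all later adjusted p-values are from edgeR quasi-likelihood fits, corrected by the Benjamini-Hochberg method for every gene in the fit, and a value under 0.05 counted as a call. Since the libraries are of bulk tissue, more cells of a type and more RNA per cell cannot be told apart here.

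Mertk, the receptor most used by tissue macrophages for dead cells, was at 23.8, 21.7 and 22.4 CPM in Sham-Fabp4flox/flox and at 64.3, 56 and 50.3 CPM in ICH-Fabp4flox/flox. It was at 25.9, 26.9 and 26.8 CPM in Sham-Fabp4CKO and at 102, 63.7 and 179.9 CPM in ICH-Fabp4CKO. The ICH-Fabp4CKO mice were spread over 2.82-fold, from a value within the range of the ICH-Fabp4flox/flox mice to a value well above it. The log2 fold change after hemorrhage was 1.29 (SE 0.132, adjusted p = 0.00058) in Fabp4flox/flox and 2.12 (SE 0.374, adjusted p = 0.0117) in Fabp4CKO.

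The 2 bridging ligands differed from each other. Pros1 encodes protein S, which also acts as an anticoagulant cofactor. It was at 15, 14.5 and 11.9 CPM in Sham-Fabp4flox/flox, at 129.4, 97.3 and 69.8 CPM in ICH-Fabp4flox/flox, at 13.7, 11 and 14.4 CPM in Sham-Fabp4CKO and at 121.3, 60.6 and 139.5 CPM in ICH-Fabp4CKO. Every ICH mouse exceeded every sham mouse. The log2 fold change between the groups was 2.79 in Fabp4flox/flox (SE 0.233, adjusted p = 0.000352) and 3.04 in Fabp4CKO (SE 0.34, adjusted p = 0.00549). Gas6 was already at 98.9, 111.1 and 102.5 CPM in Sham-Fabp4flox/flox and reached 170.9, 118 and 115.1 CPM in ICH-Fabp4flox/flox. It was at 88, 92.2 and 90.1 CPM in Sham-Fabp4CKO and at 370.7, 114.5 and 552 CPM in ICH-Fabp4CKO. Gas6 passed the test in Fabp4CKO, at 1.94 on the log2 scale (SE 0.531, adjusted p = 0.0361), and not in Fabp4flox/flox, at 0.33 (SE 0.18, adjusted p = 0.17), although the latter groups did not overlap either. In ICH-Fabp4CKO mice 1 and 3 were high, and mouse 2 lay below all 3 ICH-Fabp4flox/flox mice.

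**Figure D1:**
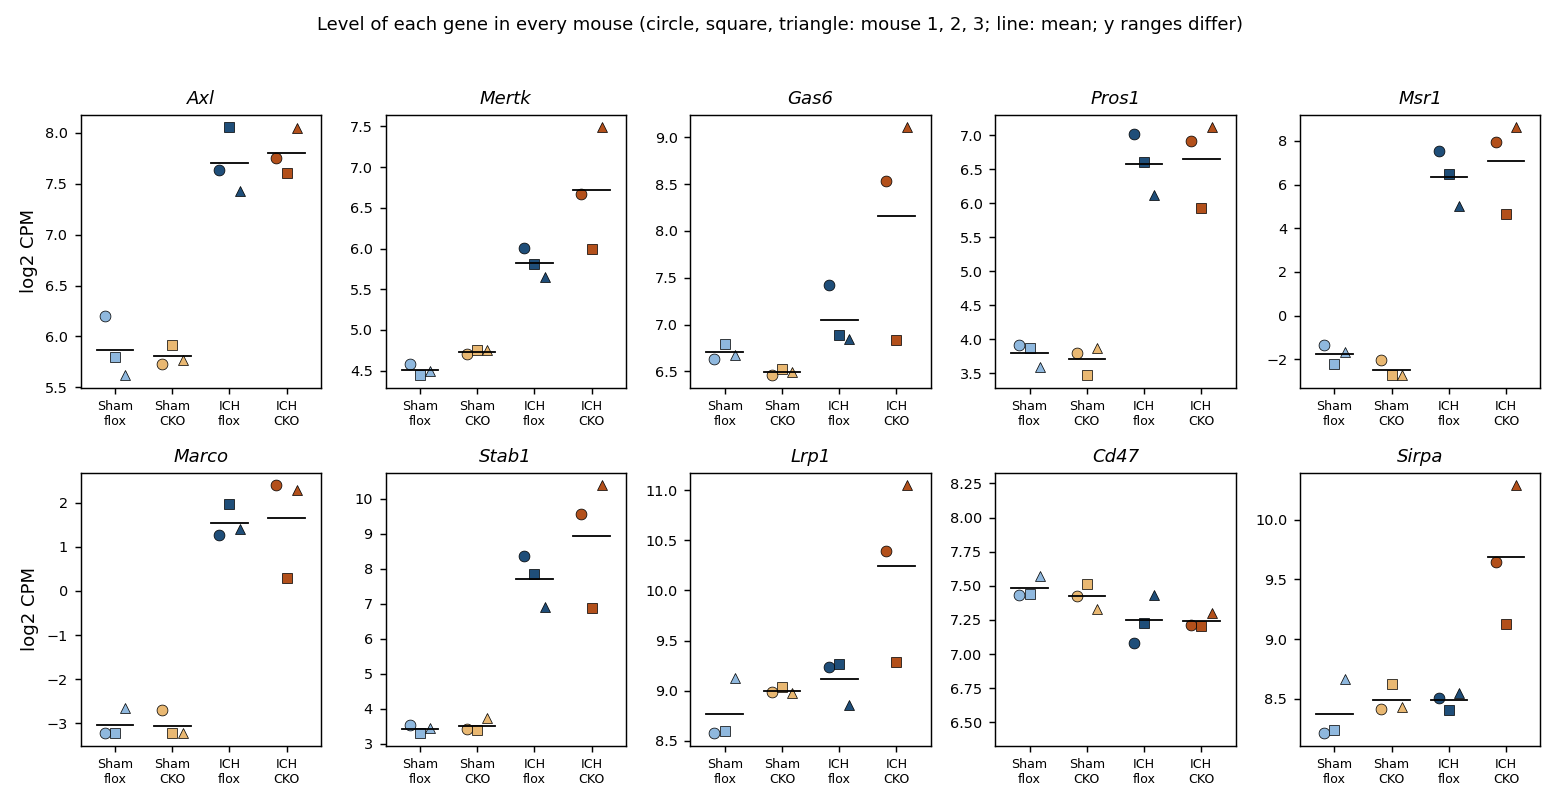
Level of each of the 10 genes in every mouse, as log2 CPM with a prior count of 2 (y axis, with a range of its own in each panel) by group (x axis). Symbols are mice 1, 2 and 3 and lines are group means. Msr1, Marco, Stab1 and Pros1 were separated most between sham and ICH, and in ICH-Fabp4CKO mouse 2 was the lowest mouse for all 10 genes.

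The class A scavenger receptors were nearly absent from the counts of sham tissue. Msr1 had 6, 2 and 4 counts in Sham-Fabp4flox/flox and 3, 1 and 1 counts in Sham-Fabp4CKO. After hemorrhage it was at 188.7, 89 and 32.3 CPM in Fabp4flox/flox and at 244.2, 24.8 and 398.7 CPM in Fabp4CKO. The fitted log2 fold change was 8.87 (SE 0.846, adjusted p = 0.000468) in Fabp4flox/flox, while the ratio of summed counts per library size was 467, with a 95% interval of 267 to 905. In Fabp4CKO the test gave an adjusted p of 0.00623 and the ratio was 2890, with an interval of 1240 to 8890. These intervals are exact Poisson intervals and cover counting error only, since the mice of ICH-Fabp4CKO alone were spread over 16.1-fold.

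Marco, which binds bacteria and particles as well, had 0, 0 and 1 counts in Sham-Fabp4flox/flox and 1, 0 and 0 counts in Sham-Fabp4CKO. It had 33, 61 and 48 counts in ICH-Fabp4flox/flox and 80, 21 and 87 counts in ICH-Fabp4CKO, or 1.12 to 5.17 CPM over the 6 ICH mice. The ratio of summed counts was 169 (95% interval 29.8 to 6720) in Fabp4flox/flox and 235 (41.7 to 9340) in Fabp4CKO, with adjusted p-values of 0.000625 and 0.00757. A single sham count stands behind each ratio, which is why the intervals are wide.

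Stab1 rose most among the members that were well counted in sham tissue. It was at 11.5, 9.7 and 10.9 CPM in Sham-Fabp4flox/flox and at 329, 228.5 and 120 CPM in ICH-Fabp4flox/flox. In Fabp4CKO it was at 10.6, 10.3 and 13.1 CPM after sham and at 755.2, 117.7 and 1331 CPM after hemorrhage. All ICH mice were high, but in ICH-Fabp4CKO the highest mouse was 11.3-fold above the lowest, which lay just below the ICH-Fabp4flox/flox mice. The log2 fold change was 4.35 (SE 0.365, adjusted p = 0.000362) in Fabp4flox/flox and 6.02 (SE 0.929, adjusted p = 0.00875) in Fabp4CKO.

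Lrp1 is expressed by many cell types of the brain and was among the most highly counted members. It was at 380.7, 385.8 and 558.9 CPM in Sham-Fabp4flox/flox and at 600.8, 615.6 and 465 CPM in ICH-Fabp4flox/flox, which overlapped. In Fabp4CKO it was at 507.7, 525.6 and 503.2 CPM after sham and at 1340, 622.5 and 2119 CPM after hemorrhage. The log2 fold change was 0.30 (SE 0.218, adjusted p = 0.287) in Fabp4flox/flox and 1.41 (SE 0.428, adjusted p = 0.0457) in Fabp4CKO, the latter close to the threshold.

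Of the do-not-eat-me pair, Cd47 was called in no comparison, and Sirpa was called after hemorrhage in Fabp4CKO, as Gas6 and Lrp1 were. Cd47 was at 172.8, 173.2 and 190.5 CPM in Sham-Fabp4flox/flox and at 135.3, 150 and 172.7 CPM in ICH-Fabp4flox/flox. It was at 171.7, 183 and 160.8 CPM in Sham-Fabp4CKO and at 148.1, 147.5 and 157.5 CPM in ICH-Fabp4CKO. In each genotype the ICH mice lay just below the sham mice without overlap, and neither difference passed the test, at log2 fold changes of -0.26 (95% interval -0.645 to 0.118, adjusted p = 0.216) and -0.18 (95% interval -0.465 to 0.098, adjusted p = 0.232). Sirpa, the phagocyte receptor of Cd47, was at 295.9, 301.2 and 405.4 CPM in Sham-Fabp4flox/flox and at 363.6, 339.5 and 373.6 CPM in ICH-Fabp4flox/flox, so that these groups overlapped. It was at 342, 393.7 and 344.5 CPM in Sham-Fabp4CKO and at 803.4, 560.5 and 1249 CPM in ICH-Fabp4CKO. All 3 ICH-Fabp4CKO mice lay above all 9 other mice. The log2 fold change was 0.06 (SE 0.186, adjusted p = 0.793) in Fabp4flox/flox and 1.28 (SE 0.306, adjusted p = 0.026) in Fabp4CKO. Genes of the Sirpb1 family resemble Sirpa in sequence, and how the estimator shared reads among them is not given in the sources used here.

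Of the 10 members, 6 were called higher after hemorrhage in Fabp4flox/flox (Axl, Mertk, Pros1, Msr1, Marco and Stab1) and 0 lower, against 26.2% of the 14719 genes tested called higher and 19.3% called lower. In Fabp4CKO, 9 were called higher and 0 lower, against 24.5% and 11.1% of 14737 genes. The 3 further genes were Gas6, Lrp1 and Sirpa. The median log2 fold change of the members was 1.54 and 2.07 in the 2 genotypes, beside medians of 0.02 and 0.01 over all genes tested. The count in Fabp4flox/flox stayed at 6 when any mouse was left out. The count in Fabp4CKO was 3 without Sham-Fabp4CKO mouse 1 and 4 without mouse 2 or mouse 3 of that group, where 5.32%, 5.12% and 4.69% of all genes were called higher. It was 6 without ICH-Fabp4CKO mouse 1, where Gas6, Lrp1 and Sirpa were lost, against 9.63% of all genes. It was 9 without mouse 2 of that group, against 34.8% of all genes, and 7 without mouse 3, where Gas6 and Lrp1 were lost, against 15.8%. Over these fits in Fabp4CKO, the highest adjusted p was 0.0446 for Axl, 0.0457 for Pros1 and 0.0481 for Msr1. For Mertk, Stab1 and Marco it was 0.0616, 0.0552 and 0.0537, so that their calls also depended on the mice included. Groups without overlap were higher after hemorrhage for 7 members in Fabp4flox/flox and 9 in Fabp4CKO, against 34.4% and 33.2% of all genes, and lower for Cd47 in both, against 27.4% and 28.9%.

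**Figure D2:**
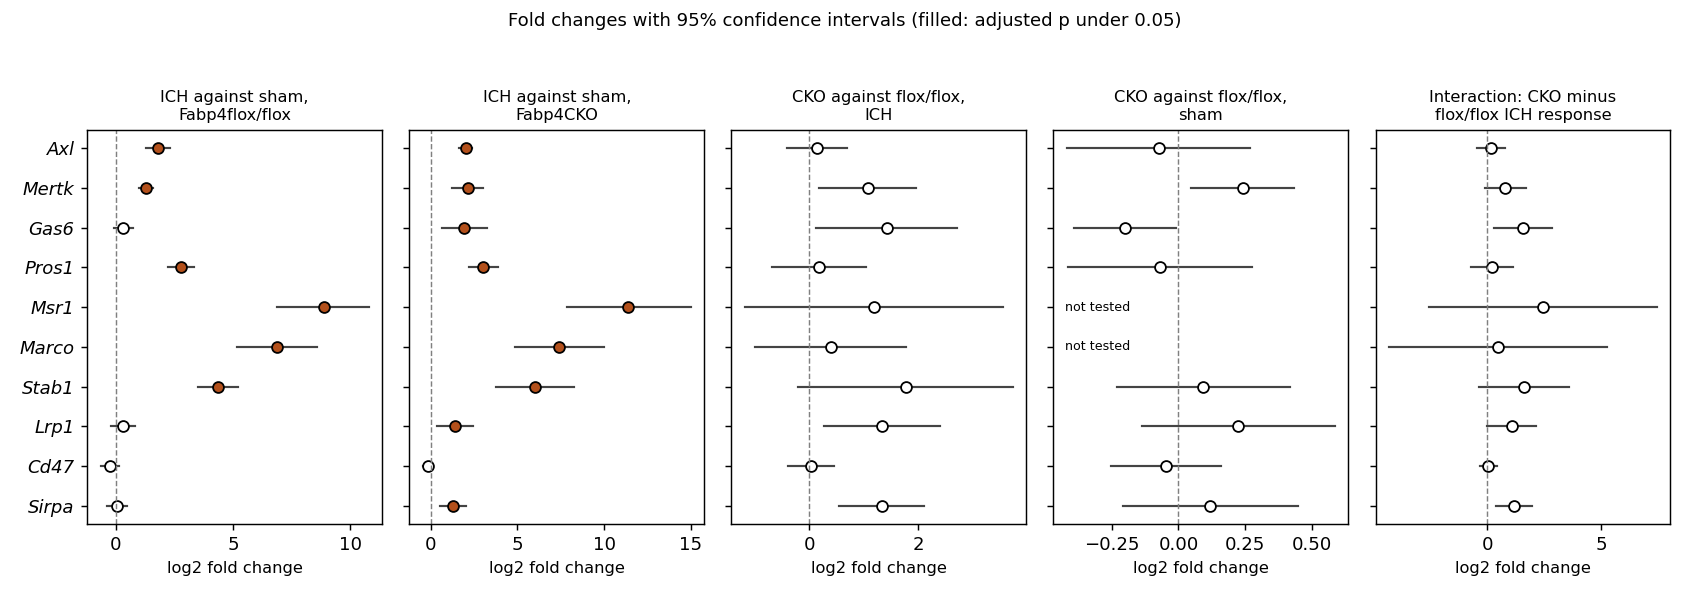
Log2 fold changes (x axis, with a range of its own in each panel) of the 10 genes with 95% confidence intervals for the 4 comparisons and for the difference between the ICH responses, with filled points at an adjusted p under 0.05. The intervals of 6 genes in Fabp4flox/flox and of 9 genes in Fabp4CKO lay above 0 for hemorrhage, and no point is filled in the 3 panels that compare genotypes.

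Between the ICH groups, all 10 members had a positive estimate in Fabp4CKO against Fabp4flox/flox, as did 56.2% of the 14600 genes tested. By edgeR 0 members and 0% of these genes were called. At an unadjusted p under 0.05, 4 members stood higher (Mertk, Gas6, Lrp1 and Sirpa), against 12.2% of all genes in either direction and 4.4% of all genes higher with a fold of at least 1.5, which those 4 also reached. DESeq2 called 1 member, Sirpa, and 3.96% of all genes. Sirpa had the firmest difference, a log2 fold change of 1.33 (95% interval 0.554 to 2.11, adjusted p = 0.306), or 871 ± 349 CPM against 359 ± 17.5 CPM (SD, n = 3). Lrp1 was next without overlap, at 1.34 (95% interval 0.266 to 2.41, adjusted p = 0.35), and 8.3% of all genes were higher without overlap against 11.5% lower. The groups overlapped for Gas6, at 1.42 (95% interval 0.121 to 2.72, adjusted p = 0.381), and for Mertk, at 1.08 (95% interval 0.18 to 1.97, adjusted p = 0.355). Stab1 had the largest estimate, 1.77, with an interval of -0.197 to 3.74 (adjusted p = 0.445), and Msr1 was at 1.19 (-1.18 to 3.55). The estimates were nearest to 0 for Axl, at 0.14 (-0.411 to 0.687), Pros1, at 0.18 (-0.678 to 1.04), and Cd47, at 0.03 (-0.392 to 0.459). Leaving out ICH-Fabp4CKO mouse 1 left these estimates at 1.39 for Sirpa, 1.35 for Lrp1, 1.37 for Gas6 and 1.16 for Mertk. Without mouse 2 they were 1.57, 1.68, 1.84 and 1.37. Without mouse 3 they were lower, at 0.98 for Sirpa, 0.86 for Lrp1, 0.91 for Gas6 and 0.60 for Mertk, and Stab1 was at 1.02. In each of these 3 cases 0 members passed, in fits that called 0%, 0.0136% and 0% of all genes without mouse 1, 2 and 3.

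Long transcripts stood higher in ICH-Fabp4CKO than short ones, which touches several of these genes. The median log2 fold change between the ICH groups was 0.22 over the 3056 genes with more than 7500 bases of exon. It was 0.13 over the 3317 genes of 5000 to 7500 bases and -0.02 over the 2330 genes of 2500 to 3500 bases. Relative to the median of its own length class, the difference was 1.12 for Lrp1 (17717 bases), 1.55 for Stab1 (10288 bases), 1.27 for Sirpa (4911 bases), 1.44 for Gas6 (2548 bases) and 1.02 for Mertk (4336 bases). The other differences were 1.05 for Msr1 (6344 bases), 0.511 for Marco (1925 bases) and 0.122 for Pros1 (4088 bases). Axl (5033 bases) was at 0.00582 and Cd47 (6276 bases) at -0.0986. After hemorrhage against sham, the longest transcripts stood lower than the shortest in both genotypes. The class medians were 0.367 up to 1500 bases and -0.266 over 7500 bases in Fabp4flox/flox, and 0.117 and -0.106 in Fabp4CKO. Relative to its class, Lrp1 was at 0.566 after hemorrhage in Fabp4flox/flox and at 1.52 in Fabp4CKO.

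In sham tissue, 8 members were counted well enough to be tested, and 0 were called between the genotypes, where 0.111% of 14395 genes were. DESeq2 called 0 of them and 1.04% of all genes, and at an unadjusted p under 0.05 there were 2, against 10.2% of all genes. Mertk was at 26.5 ± 0.55 CPM in Sham-Fabp4CKO and 22.6 ± 1.08 CPM in Sham-Fabp4flox/flox (SD, n = 3), which is a difference of 0.24 on the log2 scale (95% interval 0.0466 to 0.433, adjusted p = 0.479). Gas6 was at 90.1 ± 2.08 CPM against 104 ± 6.32 CPM, a log2 fold change of -0.20 (95% interval -0.389 to -0.0081, adjusted p = 0.484). The groups of neither gene overlapped, as held for 5.97% of genes higher and 8.86% of genes lower. The estimates of the other 6 tested members lay between -0.07 for Axl and 0.22 for Lrp1. The Sham-Fabp4flox/flox tissue held the choroid plexus markers described above. The same mice are the baseline for hemorrhage in Fabp4flox/flox and enter the test of the difference between the responses. What part this tissue had in the values of these comparisons was not tested. Without Sham-Fabp4flox/flox mouse 3, 2 members were called higher in Sham-Fabp4CKO, Lrp1 at 0.43 and Sirpa at 0.29, in a fit that called 10.5% of all genes higher and 9.12% lower.

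The difference between the ICH responses of the genotypes was tested itself, on all 12 libraries. It was called by edgeR for 0 members, where 0.0199% of 15089 genes were, and DESeq2 called 0 members and 1.76% of all genes. At an unadjusted p under 0.05 there were 2, against 9.94% of all genes. These were Sirpa, whose response was larger in Fabp4CKO by 1.17 on the log2 scale (95% interval 0.383 to 1.96, adjusted p = 0.33), and Gas6, larger by 1.57 (95% interval 0.284 to 2.86, adjusted p = 0.401). The intervals of Lrp1, at 1.07 (-0.0274 to 2.16), of Stab1, at 1.62 (-0.361 to 3.6), and of Mertk, at 0.79 (-0.0994 to 1.68), reached just across 0. These values moved with the ICH-Fabp4CKO mice included. Without ICH-Fabp4CKO mouse 2, 4 members passed, namely Gas6 at 1.99 (adjusted p = 0.0193), Sirpa at 1.41 (adjusted p = 0.0341), Lrp1 at 1.41 (adjusted p = 0.0478) and Stab1 at 2.13 (adjusted p = 0.0485), in a fit that called 1.7% of all genes higher and 0.725% lower. Without mouse 3 of that group 0 members and 0% of all genes passed, and the estimates were 1.06 for Gas6, 0.82 for Sirpa, 0.60 for Lrp1, 0.87 for Stab1 and 0.32 for Mertk. Without mouse 1 of that group 0 members and 0% of all genes passed, at 1.54 for Gas6 and 1.24 for Sirpa. That Gas6, Lrp1 and Sirpa passed the test against sham in one genotype only is thus no measure of a difference between genotypes.

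**Figure D3:**
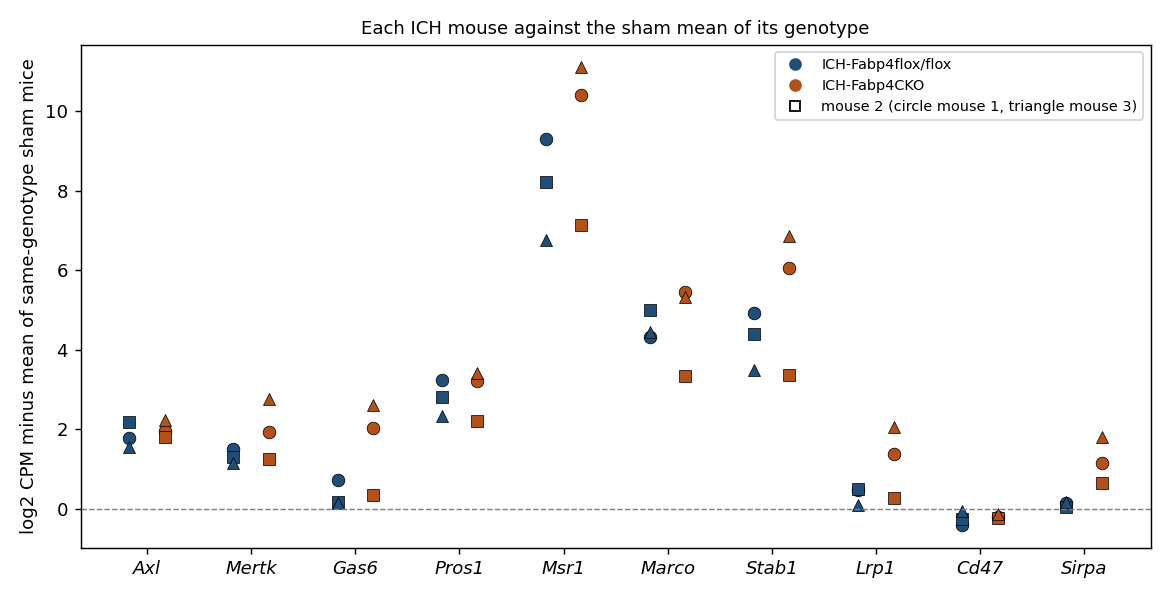
Difference of each ICH mouse from the mean of the sham mice of its genotype in log2 CPM (y axis) for the 10 genes (x axis), with symbols for mice 1, 2 and 3. In ICH-Fabp4CKO mouse 2 was below mice 1 and 3 for all 10 genes, with a difference of 0.346 for Gas6 and 3.37 for Stab1 against 2.61 and 6.87 in mouse 3.

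Most members varied together within ICH-Fabp4CKO. Mouse 2 was the lowest of its group for all 10 genes and mouse 3 the highest for 9, with Marco highest in mouse 1. For Cd47 mice 1 and 2 were nearly level, at 148.1 and 147.5 CPM. Mouse 2 also stood apart over all genes, and the share of all genes that were lowest in this mouse was not counted. In ICH-Fabp4flox/flox, mouse 3 was the lowest for 7 of the 10. Of the 10 markers of monocytes and monocyte-derived macrophages, 8 were also lowest in mouse 2, while 7 were highest in mouse 1 and 3 in mouse 3. Their summed level, which in ICH-Fabp4CKO was mostly that of Gpnmb and Fn1, was 5864, 1014 and 10490 CPM in ICH-Fabp4CKO mice 1, 2 and 3 and 2828, 1815 and 833.6 CPM in ICH-Fabp4flox/flox, against 56.4 to 122 CPM in the sham mice. The mean log2 CPM of the list was 6.54, 4.58 and 6.17 in ICH-Fabp4CKO mice 1, 2 and 3, so that mouse 2 was lowest by both measures and the order of mice 1 and 3 differed. All 10 of these markers were called higher after hemorrhage in each genotype, and none was at 0 counts in any ICH mouse. The summed fibroblast markers were at 1140, 75.2 and 2320 CPM in ICH-Fabp4CKO and at 96.8 to 408 CPM in ICH-Fabp4flox/flox, and those of microglia at 3006, 1536 and 4415 CPM and at 1500 to 1740 CPM. Border-associated macrophage markers were at 295, 40.7 and 461 CPM and at 69.7 to 211 CPM. Of these 8 markers only 3 had a positive log2 fold change between the ICH groups. The median of the list was -0.156, so that the sums do not stand for most of its markers. In these 3 lists 5 of 5, 8 of 9 and 5 of 8 markers were called higher after hemorrhage in Fabp4flox/flox, and 0 in each were called between the ICH groups. Summed neuron markers were lowest where the members were highest, at 2577, 5223 and 1837 CPM in ICH-Fabp4CKO. Between the ICH groups, 3 other lists stood apart, with 0 of their markers called. All 8 endothelial markers were lower in ICH-Fabp4CKO at an unadjusted p under 0.05 (median log2 fold change -1.23), and their sum was 365 to 423 CPM against 647 to 1330 CPM. All 6 oligodendrocyte markers were lower in the same way (median -1.19), at 7140 to 11500 CPM against 18400 to 28400 CPM. All 6 neutrophil markers tested had a positive estimate (median 2.26), and 4 of them were at an unadjusted p under 0.05. The sum of the 8 listed was 72.4 to 252 CPM against 53.3 to 94.5 CPM, so that these groups overlapped. The part of these cell types in the members' values was not tested.

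**Figure D4:**
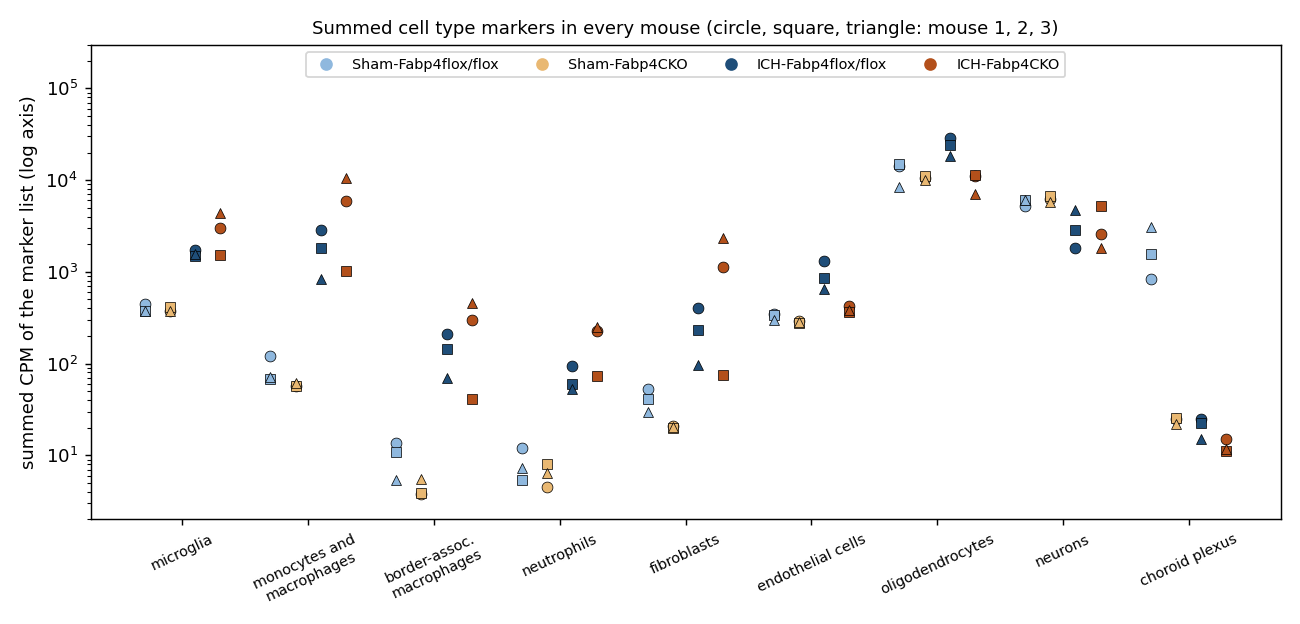
Summed CPM of 9 marker lists (y axis, log scale) in every mouse, by list (x axis) and group (color), with symbols for mice 1, 2 and 3. The phagocyte and fibroblast lists were higher after hemorrhage and lower in ICH-Fabp4CKO mouse 2 than in mice 1 and 3, and the choroid plexus list was high in the Sham-Fabp4flox/flox mice, at 832 to 3110 CPM.

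Levels were compared between genes per kilobase of exon, with lengths from GENCODE M21. In Sham-Fabp4flox/flox, Sirpa was highest at 68 ± 12.6 CPM per kb (SD, n = 3), followed by Gas6 at 40.9 ± 2.48. Cd47 at 28.5 ± 1.61 and Lrp1 at 24.9 ± 5.73 came next and overlapped each other. Then came Axl at 11.8 ± 2.5, Mertk at 5.22 ± 0.248, Pros1 at 3.37 ± 0.4 and Stab1 at 1.04 ± 0.09, each clear of its neighbors, while Msr1 and Marco overlapped at under 0.05 CPM per kb. The order in Sham-Fabp4CKO differed only in the overlapping pair, with Lrp1 at 28.9 ± 0.67 and Cd47 at 27.4 ± 1.76. After hemorrhage in Fabp4flox/flox, Sirpa stayed highest at 73.1 ± 3.57, and Marco stayed lowest at 1.5 ± 0.414. Between them the 8 others overlapped their neighbors in order, from Gas6 at 52.8 ± 12.3 and Axl at 42.3 ± 9.67 to Mertk at 13.1 ± 1.63. Axl thus stood above Cd47 and Lrp1, which it lay below in sham. In ICH-Fabp4CKO the order was Sirpa, at 177 ± 71.1, Gas6, at 136 ± 86.3, Lrp1, at 76.8 ± 42.3, and Stab1, at 71.4 ± 59, with every neighbor overlapping down to Cd47 at 24.1 ± 0.894.

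For each member the genes with the most similar pattern were found among 15089 genes, by the root mean square difference of centered log2 CPM over the 12 libraries. Lrp1 and Sirpa were near each other at 0.206, and the nearest gene to both was Abcg1, a cholesterol exporter, at 0.155 and 0.113. Cd47 was nearest to Tmem229b at 0.0641 and Leprotl1 at 0.0668. The nearest to Axl were H2-Ob at 0.155 and Slc14a1 at 0.189, to Mertk Myo9b at 0.139 and Man1c1 at 0.146, and to Gas6 Galc at 0.174 and C77080 at 0.193. For Pros1 they were Hhex at 0.163 and Myd88 at 0.165, and for Stab1 Ms4a14 at 0.175 and Lcp1 at 0.324. Msr1 had more distant neighbors, Gm49339 at 0.528 and Arg1 at 0.637, and Marco had Gm21188 at 0.255 and Sirpb1b at 0.286. All genes share the same 12 libraries and the same split into sham and ICH.

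Around the members, 101 further genes of clearance were grouped into 9 lists, covering the receptors, signals and uptake machinery named below. After hemorrhage 51 of the 97 tested in Fabp4flox/flox were called higher and 4 lower, and 57 and 4 of 98 in Fabp4CKO, where the shares of all genes were 26.2% and 19.3% in the former and 24.5% and 11.1% in the latter. Their median log2 fold changes were 0.88 and 1.28. Between the ICH groups edgeR called 0 of 97, with 12 at an unadjusted p under 0.05 (12.4%, beside 12.2% of all genes). DESeq2 called 3 (beside 3.96% of all genes), Abca1 and Mfge8 higher and Slc48a1 lower in Fabp4CKO. In the interaction edgeR called 0 of 98, with 15 unadjusted (15.3%, beside 9.94% of all genes), and DESeq2 called Abca1 and Ager (beside 1.76% of all genes). In sham edgeR called 0 of 91, with 12 unadjusted (13.2%, beside 10.2% of all genes), and DESeq2 called Ager, Hmox1 and Lgals3 lower in Fabp4CKO (beside 1.04% of all genes). These genes are named because DESeq2 called them, after their values were seen.

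The counts by list that follow are for hemorrhage in Fabp4flox/flox, where 26.2% of all genes were called higher and 19.3% lower. Of the 11 engulfment receptors tested 8 were called higher and 1 lower. Cd300lf and Cd300lb, receptors for lipids on myeloid cells, had log2 fold changes of 6.38 (SE 0.777, adjusted p = 0.00101) and 5.85 (SE 0.693, adjusted p = 0.000913), while Adgrb1, a phosphatidylserine receptor abundant in neurons and astrocytes, was lower at -1.03 (SE 0.321, adjusted p = 0.0342). Of 15 other scavenger receptors 9 were called higher and 0 lower, led by Cd5l (adjusted p = 0.00403), which had 88 to 903 counts in the ICH-Fabp4flox/flox mice against 0 to 3 in their sham group, and Cd68 at 4.74 (adjusted p = 0.00052). Cd68, a lysosomal glycoprotein of phagocytes, was at 383 ± 174 CPM in ICH-Fabp4flox/flox against 13.9 ± 6.37 CPM in its sham group (SD, n = 3). Of the 8 receptors and chaperones related to Lrp1, by contrast, 0 were called higher and 1 lower, Sorl1 at -0.98 (adjusted p = 0.0234).

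Signals and bridging proteins were divided, with 6 of 15 called higher and 2 lower. Lgals3, a lectin that bridges to Mertk, rose by 6.56 on the log2 scale (adjusted p = 0.00035) and Thbs1, a bridging matrix protein, by 5.18 (adjusted p = 0.00124). Tub, at -1.66 (adjusted p = 0.00119), and Edil3, at -0.88 (adjusted p = 0.0486), were lower. In the engulfment machinery 3 of 11 were called higher, a share of 27.3% and thus near that of all genes, and 0 lower, led by Vav1, an activator of small GTPases, at 3.41 and Rhog, a small GTPase, at 1.24. Among genes that handle the engulfed cargo 7 of 13 were called higher, with Dnase2a, which digests engulfed DNA, at 3.15 and Ucp2, a mitochondrial carrier, at 3.03.

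Of the 9 genes for hemoglobin and heme clearance 8 were called higher, led by Hmox1, the enzyme that breaks down heme, at 7.80 (SE 0.793, adjusted p = 0.000558), and Ftl1, a ferritin chain, at 4.13. Between the ICH groups Hmox1 stood at -1.88 (adjusted p = 0.421), opposite in sign to the 10 members. Of 10 other do-not-eat-me and inhibitory signals 6 were called higher and 0 lower in Fabp4flox/flox. In Fabp4CKO 7 were called higher and 1 lower, beside 24.5% and 11.1% of all genes. Calls in the further lists were not repeated with a mouse left out. The largest changes in Fabp4flox/flox were those of Pirb at 6.13 and Lilrb4a at 5.47, inhibitory receptors of myeloid cells from families of similar genes. In the list of vitamin K carboxylation, which activates Gas6 and protein S, and of receptor shedding, 4 of 6 were called higher, led by Adam17, the protease that cleaves Mertk, at 1.69 and Vkorc1, an enzyme of the vitamin K cycle, at 1.11. In Fabp4CKO, Adgrb1, Tub and Edil3 stood at -1.08, -1.25 and -0.73 without passing the test (adjusted p = 0.0757, 0.0541 and 0.0759), and the other genes named in these lists passed in the same direction.

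**Figure D5:**
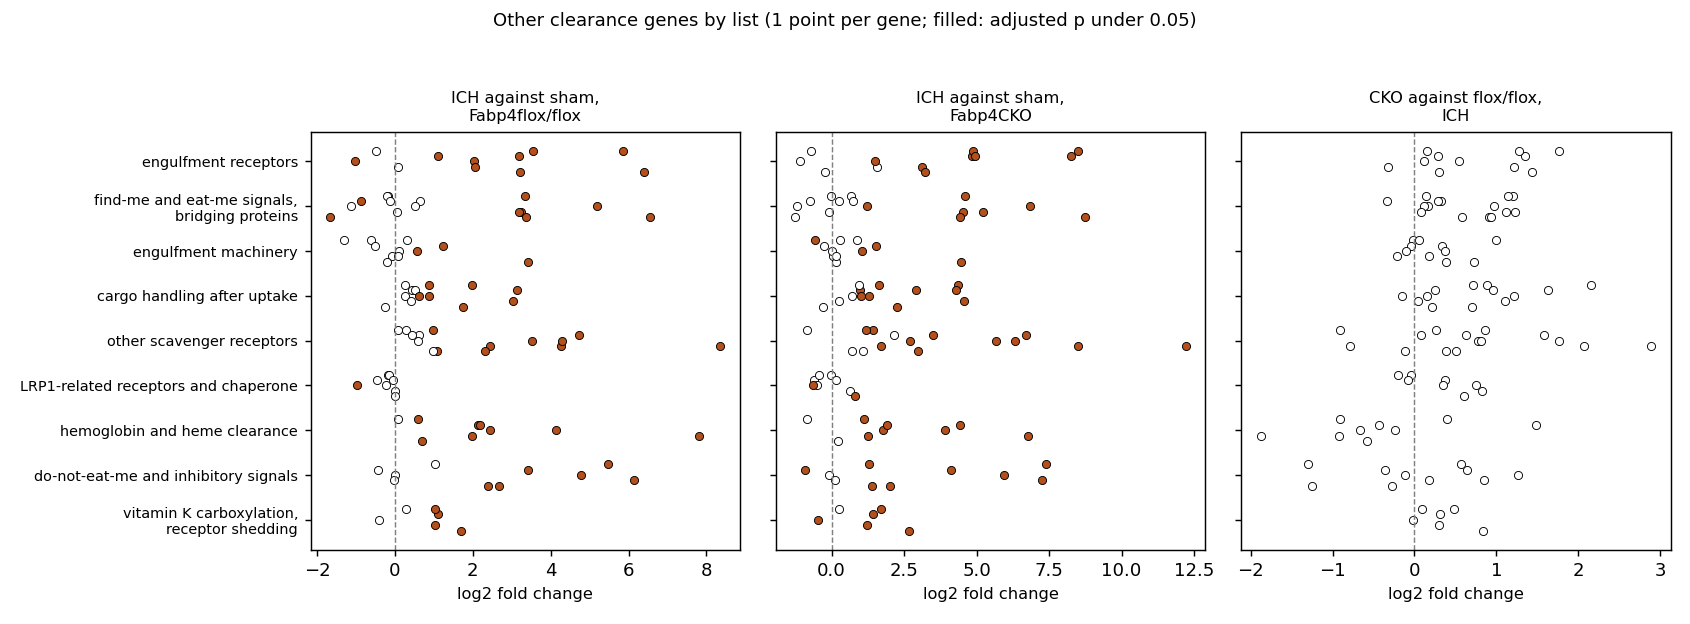
Log2 fold change (x axis, with a range of its own in each panel) of every tested gene of the 9 further clearance lists (y axis) for hemorrhage against sham in each genotype and for Fabp4CKO against Fabp4flox/flox in ICH, with filled points at an adjusted p under 0.05. Filled points lie mostly above 0 for hemorrhage, as 51 higher and 4 lower calls in Fabp4flox/flox, and none is filled between the ICH groups.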

How the data were processed

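RNA-seq of poly(A)-selected RNA from 12 brain samples was analysed, 3 per group. The labels number the samples and were read as 1 mouse each, and where that does not hold the p-values measure only the spread between samples. The authors deposited expected counts per gene, that is estimated count values without normalization, made from reads aligned and quantified before deposit. The submitters' processing notes name Bowtie2 2.2.8, HISAT2, StringTie 1.3.1 and DESeq2. The counter and genome build are not given in the sources used here. An estimator may share reads between similar genes, and 7.36% to 8.69% of values per library were not whole.

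Rounded counts were fitted by edgeR 4.0.16 under R 4.3.3 (TMM, filterByExpr with a minimum count of 10 and a total of 15, quasi-likelihood F-test) on the groups compared, or on all 12 libraries for the interaction. Standard errors are the log2 fold change over the square root of F. Log2 CPM used a prior count of 2. The fit was tested on simulated data. Alternatives were RLE scaling, total counts, DESeq2 1.42.0, no filter, a floor of 10 counts per library, a replicate block, 1 fit of 12 libraries, an unadjusted p under 0.05 with a fold of at least 1.5, and each mouse left out. Exon lengths came from GENCODE M21 and promoters from RefSeq. Figures used Python 3.11.15 and matplotlib 3.10.9.

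Members, lists and tests were chosen with earlier results of these data known. Genes named are the 10 members, 2 nearest genes for each, Fabp4, and in each further list up to 2 genes per direction with the largest called change after ICH in Fabp4flox/flox. Marker lists are given by counts and sums, and Tmem119 and the genes that only DESeq2 called were named after their values were seen.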

Additional observations from a re-analysis of the deposited data

How the results depend on the processing

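The 6 calls for hemorrhage in Fabp4flox/flox were made under every alternative except the minimum of 10 counts in every library, under which 8 members were tested, Msr1 and Marco not among them, and 4 were called. In Fabp4CKO the count of 9 ranged from 3 to 9 with 1 mouse left out. Same-numbered mice did not deviate together in every pair (correlations of 0.023 to 0.196 in Fabp4flox/flox), so the numbers were not taken as pairing. With the replicate block 6 members were called in Fabp4CKO, where Gas6 stood at 1.69, Lrp1 at 1.25 and Sirpa at 1.203, and the block changed no other call. The share of all genes called with the block was not counted. The cause was not tested.

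Between the ICH groups, the count of 0 became 4 under the unadjusted rule and 1, Sirpa, both with DESeq2 (log2 fold change 1.31) and with all 12 libraries in 1 fit (1.28), where 3.96% and 2.4% of all genes were called. The count stayed at 0 with any mouse left out, and the fits without an ICH-Fabp4CKO mouse called 0% to 0.0136% of all genes. The interaction count became 2 under the unadjusted rule and ranged from 0 to 4 with 1 mouse left out, and the sham count ranged from 0 to 2. Small estimates changed sign. Between the ICH groups Cd47 was at -0.0203 with total counts and -0.0152 in the 12-library fit. With 1 mouse left out, the ranges that crossed 0 were -0.0679 to 0.119 for Cd47, -0.0158 to 0.329 for Axl and -0.0574 to 0.465 for Pros1 between the ICH groups, -0.066 to 0.18 for Sirpa after hemorrhage in Fabp4flox/flox, -0.19 to 0.094 for Axl, -0.0918 to 0.00598 for Cd47, -0.159 to 0.044 for Pros1 and -0.0324 to 0.16 for Stab1 in sham, and -0.0131 to 0.364 for Axl, -1.37 to 2.17 for Marco, -0.0191 to 0.142 for Cd47 and -0.0378 to 0.482 for Pros1 in the interaction. None of these was called. With 3 mice per group and a spread of up to 16.1-fold for a member within ICH-Fabp4CKO, differences between genotypes of the size estimated here may go uncalled. Counts of 0 to 6 for Msr1 and Marco in sham tissue limit their folds.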
